A study of Mus musculus with 6 samples.

Results

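Sox5, Sox6, Sox8, Sox9 and Sox10 are transcription factors, and Comp, Cnmd, Acan, Matn2 and Matn4 encode proteins of the cartilage type. These 10 genes were taken by symbol from the 54532 gene IDs measured in 6 mouse mammary tumors. They were chosen by their FPKM in these same tumors, where cartilage-type proteins had been seen at a high level, so their levels are given as a description with no test. Of the 10, 8 had a mean of at least 0.5 FPKM (fragments scaled by exon length and library size) and were among the 15070 genes tested between treatments. Acan and Matn4 fell below that level.

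The tumors came from NeuT/ATTAC mice, which carry MMTV-NeuT (Erbb2 under the MMTV promoter) and FAT-ATTAC, an adipocyte transgene that AP20187 activates, on an FVB background. In both groups mammary fibrosis was induced with AP20187 at 0.4 mg/kg, begun at 6 weeks, biweekly by the sample labels and triweekly by the methods. From 8 weeks of age 1 group was given 100 μg of anti-PD-1 mAb on 2 days weekly, and the other the same amount of an isotype-matched IgG. RNAseq was done on 3 IgG and 3 anti-PD-1 tumors with 1 library per tumor, so every tumor came from an AP20187-treated mouse. A figure legend of the study describes pooled RNA, whereas the values used here are separate for each tumor. The labels do not state that each tumor came from its own mouse, so p-values measure only the spread between these samples.

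Sox9 is the factor that commits progenitor cells to cartilage, and with Sox5 and Sox6 it drives the genes of cartilage matrix. Sox8, Sox9 and Sox10 form the SoxE group. Sox10 is best known from neural crest, Schwann cells and melanocytes, and it is also made in mammary epithelium. Comp is a pentameric thrombospondin that binds collagen, Cnmd (chondromodulin) is a membrane glycoprotein that inhibits vessel growth, Acan (aggrecan) is the large proteoglycan of cartilage, and matrilins link matrix fibrils.

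Promoter sequence was available in the RefSeq table (GRCm38.p6) for 6 of the 10 genes, from 250 bases before to 50 bases after each start. Those of Cnmd, Acan and Sox5 are shown because Cnmd was high and Acan near 0 in these tumors and because Sox5 holds a Sox-type motif. ACAAT and ACAAAG were searched on both strands, and capitals mark a match. The windows are chr14:79662134-79662433 on the minus strand for Cnmd, chr7:79052976-79053275 on the plus strand for Acan and chr6:143947057-143947356 on the minus strand for Sox5.
Cnmd: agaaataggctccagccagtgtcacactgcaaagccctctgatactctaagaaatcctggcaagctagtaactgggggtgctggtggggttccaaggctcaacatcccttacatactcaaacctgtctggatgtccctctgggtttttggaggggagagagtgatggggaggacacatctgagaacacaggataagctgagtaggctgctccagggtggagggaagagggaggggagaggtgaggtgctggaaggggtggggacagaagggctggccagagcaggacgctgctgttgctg
Acan: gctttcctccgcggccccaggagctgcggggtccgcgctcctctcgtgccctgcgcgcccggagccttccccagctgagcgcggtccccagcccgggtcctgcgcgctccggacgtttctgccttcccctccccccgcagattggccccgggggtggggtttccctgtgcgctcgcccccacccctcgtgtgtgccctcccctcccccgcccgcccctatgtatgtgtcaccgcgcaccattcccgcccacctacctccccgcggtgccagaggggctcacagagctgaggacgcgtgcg
Sox5: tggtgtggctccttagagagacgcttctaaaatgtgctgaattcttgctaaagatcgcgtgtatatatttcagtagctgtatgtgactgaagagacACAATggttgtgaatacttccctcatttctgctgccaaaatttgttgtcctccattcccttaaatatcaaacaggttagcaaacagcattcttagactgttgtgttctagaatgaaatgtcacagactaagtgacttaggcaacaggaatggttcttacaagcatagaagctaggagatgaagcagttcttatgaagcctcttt
Neither motif was in the Cnmd or the Acan window, and the Sox5 window held ACAAT 1 time. Of the 12 promoters of these 6 genes, 7 held a motif, beside 42.9% of all 32851 promoters of this length. Of these 7, 6 were alternative starts of Sox6, so that 2 of 6 genes held a motif. ACAAT was in 31.0% of all promoters and ACAAAG in 18.7%. A match describes the letters of the window and is not a binding site.

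Sox10 was the most abundant of the Sox factors. Its FPKM was 193, 222, 302 with IgG (in the order of replicates 1 to 3, as for all values given so), compared with 267, 197, 266 after anti-PD-1. The groups overlapped, and the mean over the 6 tumors stood at the 98.9 percentile of the genes tested. Sox9 was at 25.5, 32.4, 37.6 FPKM with IgG, compared with 20.97, 33.9, 21.7 after anti-PD-1. Its highest tumor was far below the lowest tumor for Sox10, and the groups overlapped.

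Sox8 came next, at 7.18, 4.58, 8.58 FPKM with IgG, compared with 11.8, 9.88, 10.0 after anti-PD-1. All 3 anti-PD-1 tumors lay above all 3 IgG tumors. Sox5 was at 2.47, 2.89, 4.21 FPKM with IgG, compared with 2.13, 2.36, 2.25 after anti-PD-1, with every anti-PD-1 tumor below every IgG tumor. Sox6 was at 0.953, 1.80, 2.17 FPKM with IgG, compared with 1.97, 1.73, 1.86 after anti-PD-1, and its groups overlapped. In the order Sox10, Sox9, Sox8, Sox5, Sox6 the ranges of neighbours were separate except for Sox5 and Sox6. The span between the lowest and highest tumor ran from 1.56-fold for Sox10 to 2.57-fold for Sox8, whose SD over the tumors stood at the 72.3 percentile of the genes tested.

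Comp had the highest mean of the 5 cartilage proteins of the list and varied widely. Its FPKM was 125, 18.5, 95.7 with IgG, compared with 390.5, 196, 522 after anti-PD-1. The groups did not overlap, IgG replicate 2 was the lowest, and the span was 28.2-fold. Cnmd was at 37.9, 12.2, 2.98 FPKM with IgG, compared with 36.8, 94.9, 64.3 after anti-PD-1. IgG replicate 3 was the lowest, and IgG replicate 1 stood just above anti-PD-1 replicate 1, so the groups overlapped. The SD of log2(FPKM + 1) over the tumors placed Comp and Cnmd at the 99.6 percentile of the genes tested, against 41.0 for Sox10 and 58.4 for Sox9.

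Matn2, a matrilin found in many connective tissues besides cartilage, was at 6.20, 2.52, 0.896 FPKM with IgG, compared with 6.66, 4.73, 15.3 after anti-PD-1. IgG replicate 3 was low, anti-PD-1 replicate 3 was high, and the groups overlapped. Acan was listed at 0.0365, 0, 0 FPKM with IgG, compared with 0.34, 0, 0.817 after anti-PD-1, from 6, 0, 0, 65, 0 and 145 reads. A count of 0 reads, taken as fewer than 3, allows up to between 0.0157 and 0.0182 FPKM of Acan, counting error only. Matn4 rested on 4 to 50 reads per tumor and did not pass 0.378 FPKM. These 2 genes go against the description of the list as high, whereas Comp rested on 1316 to 36770 reads and Cnmd on 134 to 4243.

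**Figure D1:**
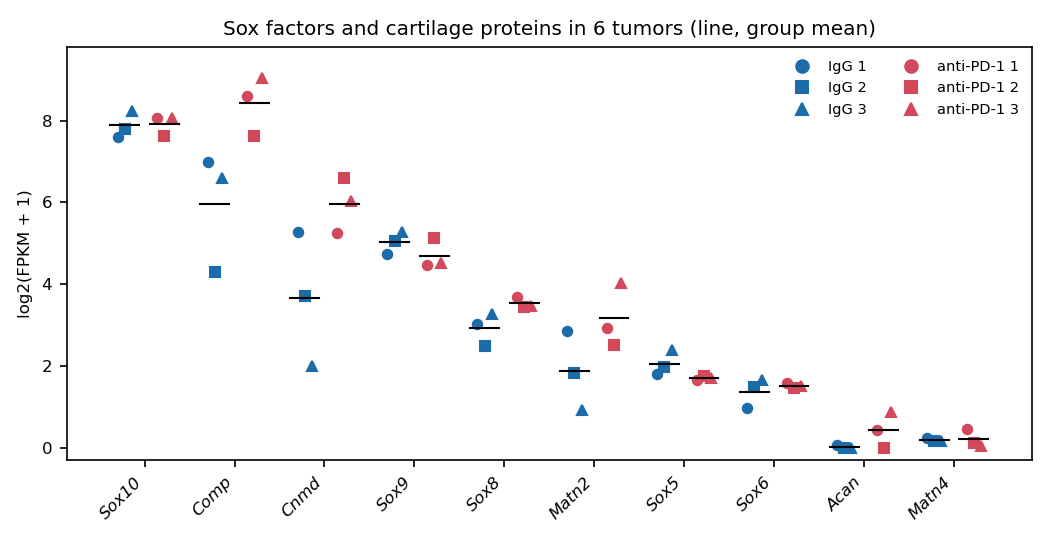
log2(FPKM + 1) of the 10 genes in each tumor, with IgG tumors in blue, anti-PD-1 tumors in red, a shape for each replicate number and a line at the mean of each group. Sox10 and Comp reached the highest values, Comp and Cnmd spread widely between tumors, and Acan and Matn4 stayed near 0.

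The genes lie apart in the genome (GRCm38, GENCODE release M21), with Comp on chromosome 8 from 70373558 to 70382066, Cnmd on chromosome 14 from 79637690 to 79662170, Sox9 on chromosome 11 from 112782224 to 112787760 and Sox10 on chromosome 15 from 79154908 to 79165240. No annotated gene overlaps these 4 genes or Acan. Sox8 overlaps the antisense gene 2810468N07Rik, Matn2 overlaps 9430069I07Rik, Matn4 overlaps Rbpjl, Sox6 overlaps 2 antisense genes and Sox5 overlaps 7 genes. Strand use in the counting is not given in the sources used here, so reads of these 5 genes and of their partners cannot be told apart. Matn2 and Sox10 share chromosome 15, whose median gene stood 0.33 above its 6-tumor mean on the log2 scale in anti-PD-1 replicate 3 and between -0.18 and -0.01 in the other tumors. On chromosome 8, which holds Comp, the median gene stood at 0.13 in anti-PD-1 replicates 1 and 3 and at -0.29 in anti-PD-1 replicate 2, the tumor with the least Comp of that group, and between -0.06 and 0.03 with IgG. The part of these chromosome shifts in the values of the genes was not tested.

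The list was then set against other genes of cartilage. Of 34 further cartilage matrix and chondrocyte genes, 22 were tested. Chains of type IX collagen and Col11a1 were abundant. Col9a1, a chain of type IX collagen, had 242, 212, 272 FPKM with IgG, compared with 297, 255, 240 after anti-PD-1, an even level over all of them. Col9a2 ran from 39.6 to 200 FPKM, Col9a3 from 34.1 to 111, and Col11a1, a chain of type XI collagen, from 50.4 to 136. Col10a1, the collagen of hypertrophic cartilage, ran from 0.250 to 1.39 FPKM, and is named here because it stood apart from these chains.

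Col2a1, which encodes the main collagen of cartilage, was low and uneven. Its FPKM was 5.36, 0, 0.00443 FPKM with IgG, compared with 0.727, 6.06, 3.18 after anti-PD-1, so that 2 IgG tumors held at most 1 read. Hapln1, the link protein that binds aggrecan, was listed at 0 in every tumor, as were the cartilage matrilin Matn1, the chondrocyte factor Nkx3-2 and the bone protein Ibsp. Scrg1, a further gene of the list, which is named after its values were seen, had 7.30 to 55.0 FPKM.

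**Figure D2:**
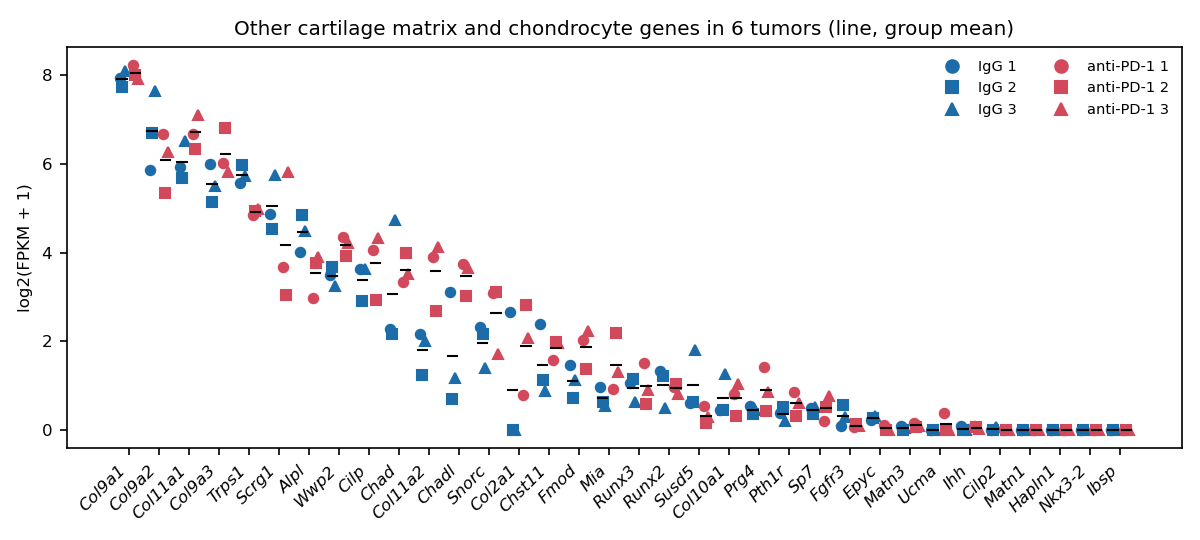
log2(FPKM + 1) of 34 other cartilage matrix and chondrocyte genes in each tumor, in the order of their mean FPKM, with colors and shapes for group and replicate and a line at each group mean. Col9a1, Col9a2, Col11a1 and Col9a3 led the list, Col2a1 was low, and Matn1, Hapln1, Nkx3-2 and Ibsp were at 0.

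Of other Sox genes, 6 of 14 were tested. Sox4, a progenitor factor, had 28.2 to 36.4 FPKM, close to Sox9, and their ranges overlapped. Sox13, the remaining SoxD factor, had 8.04 to 27.7 FPKM, Sox12 0.991 to 7.28 and Sox18, an endothelial factor, 2.44 to 5.63. Sox14 was uneven, from 0 to 5.93 FPKM. Sox1 and Sox3 were listed at 0. Among thrombospondins, Thbs1 had 70.0 to 164 FPKM, Thbs2 3.85 to 19.5, Thbs3 0.659 to 1.83 and Thbs4 6.38 to 20.3. Thbs3 and Thbs4 are pentameric like Comp.

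The comparison of anti-PD-1 with IgG tumors asks how the antibody changed expression in fibrotic tumors. Comp, Cnmd, Sox8 and Matn2 had higher means in anti-PD-1 tumors at an unadjusted limma p under 0.05, and none of the 8 genes tested had an adjusted p under 0.05. Over all genes 12.3% had an unadjusted p under 0.05, 6.22% higher and 6.05% lower, and 0% had an adjusted p under 0.05. Comp, Sox8 and Sox5 had groups that did not overlap, beside 18.1% of all genes, 9.3% higher and 8.75% lower. The median log2 fold change was 0.38 over the 8 genes and 0.0072 over all genes tested. Fewer cells of a type and less RNA per cell cannot be told apart in such bulk samples.

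Mean Comp was 79.8 ± 55.1 FPKM (SD, n = 3) in IgG and 369 ± 164 (SD, n = 3) in anti-PD-1 tumors. Its log2 fold change on the log2(FPKM + 1) scale was 2.47 (standard error 0.71, 95% interval 0.79 to 4.15), with a limma p of 0.0100 and an adjusted p of 0.344. The exact permutation test gave p = 0.1, two-sided, which is the smallest that 3 tumors against 3 can give. Without IgG replicate 2 the log2 fold change was 1.64 and without IgG replicate 1 it was 2.99. The unadjusted limma p of Comp lay between 0.0006 and 0.0380 over all settings tried, and its adjusted p between 0.130 and 0.786.

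Mean Cnmd was 17.7 ± 18.1 FPKM (SD, n = 3) in IgG and 65.3 ± 29.1 (SD, n = 3) in anti-PD-1 tumors. The log2 fold change was 2.29 (standard error 0.78, 95% interval 0.47 to 4.11), with a limma p of 0.0205, an adjusted p of 0.358 and an exact permutation p of 0.2. It was 1.45 without IgG replicate 3 and 3.10 without IgG replicate 1. The unadjusted limma p was above 0.05 when IgG replicate 2, anti-PD-1 replicate 2 or anti-PD-1 replicate 3 was left out, up to 0.0750.

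Sox8 had 6.78 ± 2.03 FPKM (SD, n = 3) in IgG and 10.6 ± 1.06 (SD, n = 3) in anti-PD-1 tumors. Anti-PD-1 exceeded IgG by 0.61 on the log2 scale (standard error 0.22, limma p = 0.0297, adjusted p = 0.374, exact permutation p = 0.1), and by 0.39 without IgG replicate 2. For Matn2 the log2 fold change was 1.302 (standard error 0.55, limma p = 0.0490, adjusted p = 0.406, exact permutation p = 0.2), and it was 0.83 without IgG replicate 3 and 1.79 without IgG replicate 1. The unadjusted limma p of Sox8 was above 0.05 when IgG replicate 2 or any anti-PD-1 tumor was left out. That of Matn2 was above 0.05 when any tumor but IgG replicate 1 or anti-PD-1 replicate 2 was left out, and also with no filter on low FPKM, without the trend or with the replicate number as a block.

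Sox9 and Sox10 did not show a difference beyond the spread of the tumors. The log2 fold change of Sox9 was -0.32 (95% interval -0.88 to 0.24, limma adjusted p = 0.609) and that of Sox10 was 0.04 (95% interval -0.52 to 0.60, adjusted p = 0.957). These intervals leave room for a change of either sign. Without anti-PD-1 replicate 2, which had the most Sox9 of its group, the log2 fold change of Sox9 was -0.53 with an unadjusted limma p of 0.0456. Sox5 had a log2 fold change of -0.34 (95% interval -0.81 to 0.12, limma adjusted p = 0.510), and Sox6 of 0.14 (95% interval -0.39 to 0.67, adjusted p = 0.823). The difference between the Comp or Cnmd and the Sox9 or Sox10 fold changes was not tested.

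At an unadjusted p under 0.05, anti-PD-1 tumors had more of 5 and less of 2 of the 22 further cartilage genes tested, beside 6.22% and 6.05% of all genes, and 0 passed by the limma adjusted p. Their median log2 fold change was 0.42, against 0.0072 over all genes. Col11a2, the minor chain of type XI collagen, was at 3.49, 1.37, 3.03 FPKM with IgG, compared with 14.0, 5.42, 16.6 after anti-PD-1, with no overlap. Its log2 fold change came to 1.77 (standard error 0.42), with a limma adjusted p of 0.344 and an exact permutation p of 0.1. The difference was 1.81 for Chadl (standard error 0.59, limma adjusted p = 0.355) and 0.67 for Col11a1 (standard error 0.28, adjusted p = 0.406) on this scale, and both had overlapping groups. Chadl was at 7.59, 0.634, 1.26 FPKM with IgG. Its log2 fold change was 2.53 without IgG replicate 1 and 1.33 without IgG replicate 2.

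The other 4 genes of this count were Fmod (fibromodulin, a collagen-binding proteoglycan), Wwp2, Trps1 and Alpl (tissue-nonspecific alkaline phosphatase). Fmod, Wwp2 and Trps1 are named because they make up the count, after their values were seen. Trps1, a GATA-type repressor that luminal mammary cells also make, was at 46.0, 62.2, 52.2 FPKM with IgG, compared with 27.8, 29.4, 30.6 after anti-PD-1. The 3 anti-PD-1 tumors lay below all IgG tumors, and the log2 fold change was -0.83 (standard error 0.16), with a limma adjusted p of 0.344 and an exact permutation p of 0.1. On the same scale Alpl differed by -0.90 (limma adjusted p = 0.364), Wwp2 by 0.70 (adjusted p = 0.344) and Fmod by 0.78 (adjusted p = 0.380). Over the settings tried, the unadjusted limma p reached at most 0.0491 for Col11a2, 0.0275 for Wwp2 and 0.0170 for Trps1. For Chadl, Col11a1, Fmod and Alpl it was above 0.05 without IgG replicate 2 and also without anti-PD-1 replicate 1. For Col11a1 it was also above 0.05 without IgG replicate 1 (0.112) or anti-PD-1 replicate 3 (0.158) and with quantile normalization (0.137). The same held for Col11a1 with no filter, at least 2 FPKM or no trend. For Chadl it was also above 0.05 without IgG replicate 3 or anti-PD-1 replicate 3, and for Alpl without IgG replicate 3. Of the 6 other Sox genes and the 4 thrombospondins tested, 0 had an unadjusted limma p under 0.05, beside 12.3% of all genes. Their largest log2 fold change was that of Sox14, 1.10 (standard error 0.73, limma adjusted p = 0.568), and Thbs3 differed by 0.34 (adjusted p = 0.585). Sox14 depended on the setting, with 1.89 without anti-PD-1 replicate 2, 2.13 with 0.1 added and 2.71 with voom on recovered reads. Without anti-PD-1 replicate 3 it was 0.49, smaller in size than Sox13 at -0.62.

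**Figure D3:**
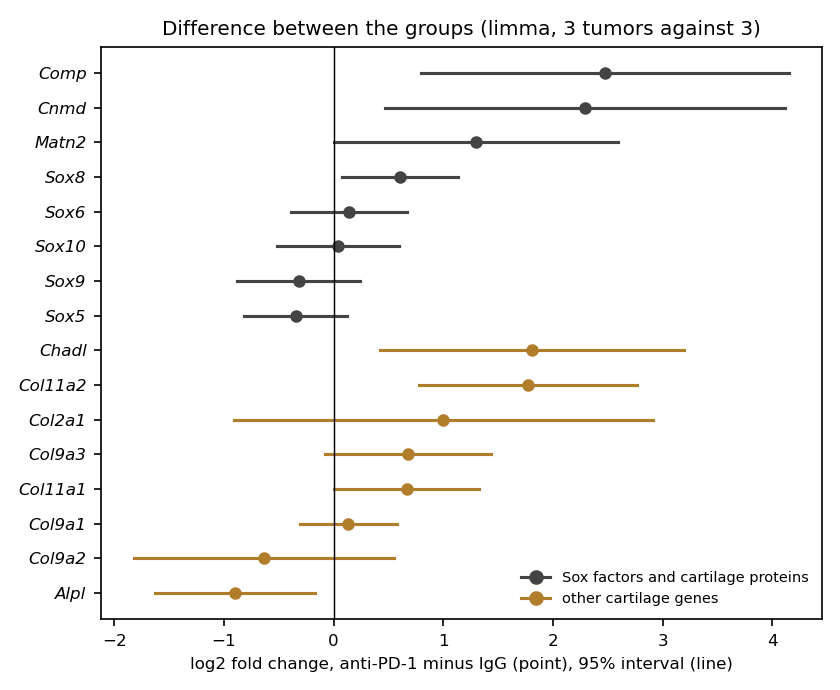
log2 fold change of anti-PD-1 minus IgG tumors on the log2(FPKM + 1) scale for the 8 tested genes of the list and other cartilage genes, with the limma 95% interval as a line. The intervals of Comp, Cnmd, Sox8 and Matn2 lay above 0 before adjustment, and those of Sox9 and Sox10 crossed 0.

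Whether Comp and Cnmd followed Sox9 or Sox10 was read from the 6 tumors on the log2(FPKM + 1) scale. Neither gene had a positive relation with Sox9. For Comp and Sox9 Pearson's r was -0.66 (exact permutation p = 0.147) and Spearman's rho -0.66 (p = 0.175, exact). The tumors with the most Comp, anti-PD-1 replicates 3 and 1, had the least Sox9, and r was -0.08 without these 2 tumors, so the relation rests on them. For Cnmd and Sox9 r was -0.55 (exact permutation p = 0.283), rho was -0.26 (exact p = 0.658), and r was -0.47 without the same 2 tumors.

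With Sox10 the sign of r differed between Comp and Cnmd. For Comp and Sox10 r was 0.26 (exact permutation p = 0.619), rho was 0.09 (exact p = 0.919), and r was 0.52 without the 2 tumors farthest from the median of Sox10, IgG replicates 1 and 3. For Cnmd and Sox10 r was -0.54 (exact permutation p = 0.292), rho was -0.60 (exact p = 0.242), and r was -0.10 without these 2. The Benjamini-Hochberg adjusted exact permutation p over the 4 relations was 0.389 for 3 of them and 0.619 for Comp with Sox10. With 6 tumors such relations could not be told from 0.

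With the mean of each treatment group removed, r was -0.48 for Comp and Sox9, 0.32 for Comp and Sox10, -0.28 for Cnmd and Sox9 and -0.91 for Cnmd and Sox10. On the same measure r was -0.93 for Cnmd and Sox6 and -0.83 for Cnmd and Sox5. Cnmd and Sox10 had an exact permutation p of 0.0167 over all orders of the tumors (adjusted over the 4 relations, 0.0667). With tumors permuted only within groups, a choice made after that value was seen, the exact p was 0.0556 (adjusted, 0.222). The other 3 relations with Sox9 or Sox10 had an exact p between 0.328 and 0.778 in either form. Among all tested genes, 84.2% had an r with Comp at least as high as that of Sox9 and 38.3% one at least as high as that of Sox10. For Cnmd the shares were 78.1% and 77.9%.

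**Figure D4:**
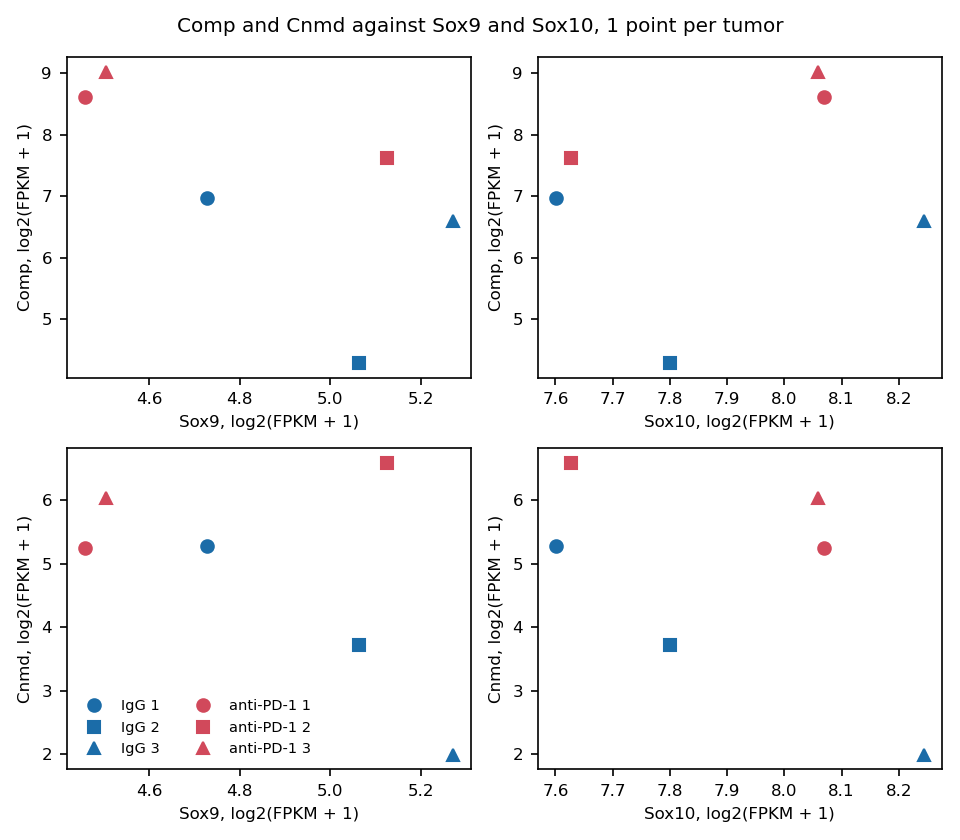
Comp and Cnmd on the vertical axes against Sox9 and Sox10 on the horizontal axes, all as log2(FPKM + 1), with 1 point per tumor, IgG in blue and anti-PD-1 in red. No panel shows a rise of Comp or Cnmd with Sox9. Comp and Sox10 had r = 0.26, and within each color the tumors with more Sox10 have less Cnmd.

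All 25 pairs of a cartilage protein with a Sox factor were computed, and 4 had an unadjusted exact p under 0.05. Among all other genes tested, 12.7% had such a p with Comp and 14.5% with Cnmd. These shares were not computed for Matn2, Acan or Matn4, and nothing particular to Sox factors is read from the count of 4. The count and its adjustment include 10 pairs of Acan or Matn4, which rest on few reads and of which 0 had an exact p under 0.05. For Comp and Sox8 r was 0.93 (exact permutation p = 0.0250, rho 0.89, r 0.69 without the 2 tumors farthest from the median of Sox8). The other 3 relations were negative. For Cnmd and Sox5 r was -0.92 (rho -0.60), but 0.16 without the 2 farthest tumors, so that it rests on them. For Matn2 and Sox5 r was -0.87 (rho -0.89) and -0.35 without 2 tumors, and for Matn2 and Sox9 it was -0.85 (rho -0.89) and -0.80 without 2 tumors. The smallest adjusted exact p over the 25 pairs was 0.208. Comp and Cnmd had r = 0.59 with each other (exact permutation p = 0.269). It was 0.07 without 2 tumors and -0.02 with the group means removed, and in IgG replicate 3 Comp was at 95.7 FPKM while Cnmd was at its lowest.

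The relations of Comp and Cnmd with the cartilage genes tested were added after seeing the data. Of 45 relations 12 had an unadjusted exact p under 0.05, 4 of them negative, and the smallest adjusted exact p was 0.0625. They were 7 of 23 relations of Comp, among which Cnmd was counted, beside 12.7% of all other genes tested with Comp, and 5 of 22 of Cnmd, beside 14.5% of all other genes. Nothing particular to cartilage genes is read from these counts. Comp had r = 0.95 with Col11a2, and the tumors stood in the same order for both genes. Cnmd had r = 0.84 with Col2a1 (exact permutation p = 0.0278, adjusted 0.139), and r was 0.55 without 2 tumors. Cnmd had r = 0.82 with Mia, with the tumors in the same order for both, and -0.94 with Susd5 and -0.90 with Col9a2. Comp had r = 0.95 with Fmod, -0.90 with Trps1 and -0.82 with Alpl. Mia and Susd5 are named after their values were seen. Comp and Col11a2 both had higher anti-PD-1 tumors, and r was 0.85 with the group means removed.

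The genes most like each gene over the 6 tumors were taken by Pearson's r among those of at least 5 FPKM and an SD of at least 0.5. For Comp they were Gfra4 (r = 0.997), Bcar3 (0.979) and Tgfb1 (0.979). For Cnmd they were B3galt5 (r = 0.993), Pced1b (0.992) and Gm27616 (0.989). For Sox9 they were H2-T-ps (r = 0.991), Pik3cg (0.978) and Padi2 (0.940), and for Sox10 Gm31036 (0.958), Nxf7 (0.923) and Chsy1 (0.901). These were the highest of 1233 or 1234 correlations, and the genes nearest to Comp and Cnmd were different ones.

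The tumors differed in what other tissue markers they held. Luminal epithelial markers had summed levels of 2033 to 2870.2 FPKM in IgG and 2714 to 3802 in anti-PD-1 tumors over 12 genes. Epcam, Krt18 and Krt8 carried the sum, each at 431 FPKM or more in every tumor, whereas Foxa1 did not pass 2.13 FPKM and Esr1 did not pass 1.96. Of the 12 genes, 2 had an unadjusted limma p under 0.05, Kit and Krt19, and both were lower in anti-PD-1 tumors with no overlap (log2 fold changes -0.85 and -2.03, limma adjusted p = 0.346 and 0.404), beside 12.3% of all genes at this p. Krt19 was at 7.84, 77.9, 7.46 FPKM with IgG. Without IgG replicate 2 its log2 fold change was -0.96, and its unadjusted limma p reached 0.137 over the settings tried. Without overlap were 5 of the 12, beside 18.1% of all genes, with Kit, Krt19 and Foxa1 lower and Erbb2 and Epcam higher in anti-PD-1 tumors (log2 fold changes 0.34 and 0.43 for the last pair). These markers are named after their values were seen. Salivary gland markers other than Aqp5 summed to 105, 5413, 105 FPKM with IgG, compared with 2089, 0.499, 1.52 after anti-PD-1. Thus IgG replicate 2 and anti-PD-1 replicate 1 stood apart, led by Bpifa2, a salivary secretory protein, at 3033 and 1273 FPKM, and Muc19 was at 0. Skeletal muscle markers summed to 1.65, 176, 5.84 FPKM with IgG, compared with 90.9, 192, 0.66 after anti-PD-1 over 8 genes.

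IgG replicate 2, which was lowest in Comp and Sox8, was among the tumors with these markers, and so was anti-PD-1 replicate 1, which was high in both. Without these 2 tumors the log2 fold change was 1.54 for Comp, 2.67 for Cnmd, 0.31 for Sox8 and 1.39 for Matn2, and Comp alone of these 4 kept an unadjusted limma p under 0.05. Anti-PD-1 replicate 2, with muscle but almost no salivary markers, had the highest Cnmd and the lowest Comp of its group. Fibroblast markers, of which all 10 were tested, summed to 300.01, 104, 135 FPKM with IgG, compared with 407, 115, 254 after anti-PD-1. The part of these markers in the values of Comp and Cnmd was not tested.

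Markers of Schwann cells and melanocytes, in which Sox10 is known to act, summed to 68.1 to 97.6 FPKM in IgG and 47.0 to 69.8 in anti-PD-1 tumors, and 8 of 14 were tested. S100b, at 19.8 to 47.1 FPKM, and Cdh19 led the sum, whereas the melanocyte enzymes Tyr, Tyrp1 and Dct were at 0. Cdh19, an adhesion protein of Schwann cell precursors, was at 24.4, 40.4, 40.7 FPKM with IgG, compared with 9.93, 15.95, 13.6 after anti-PD-1. Its groups did not overlap, and the log2 fold change was -1.34 (limma adjusted p = 0.344, exact permutation p = 0.1). Basal and myoepithelial markers summed to 24.7 to 49.5 FPKM, tendon markers to 38.6 to 62.3 and adipocyte markers to 2.97 to 10.5 over the 6 tumors. Of the basal sum, Acta2 held 10.3 to 37.0 FPKM, whereas Krt5, Krt14, Krt17 and Trp63 did not pass 2.99 FPKM in any tumor. These basal markers are named after their values were seen.

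**Figure D5:**
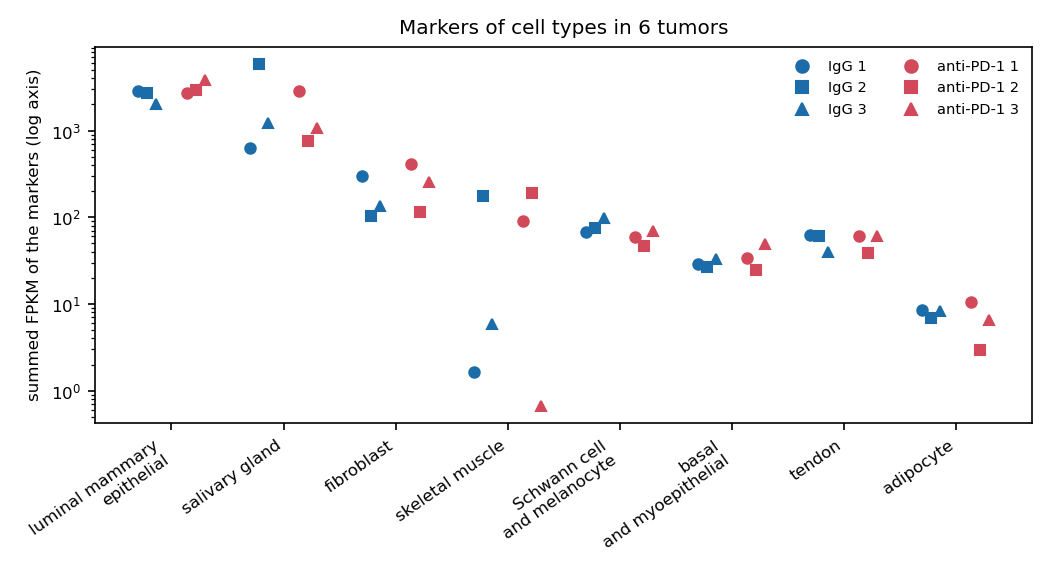
Summed FPKM of the markers of 8 cell types or tissues in each tumor, on a log axis, with IgG tumors in blue and anti-PD-1 tumors in red. The luminal sum was between 2033 and 3802 FPKM, and the salivary sum, which here includes Aqp5, was highest in IgG replicate 2 and anti-PD-1 replicate 1.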

How the data were processed

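RNAseq of 3 IgG and 3 anti-PD-1 tumors was used as deposited. The authors deposited FPKM values per Ensembl gene ID for each tumor. The submitters' processing notes list FastQC 0.11.9, cutadapt 3.5, Bowtie2 2.4.1, RSEM 1.3.1, DESeq2 1.36.0, R 4.1 and mm10. How the FPKM was made is not given in the sources used here. Multiplied by merged exon length, 97.0% to 97.3% of detected values per tumor were within 0.1 of whole reads, and the recovered reads came to between 21075641 and 23852764.

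FPKM values were divided by median-of-ratios factors (0.996 to 1.003), and log2(FPKM + 1) was computed. Genes averaging at least 0.5 FPKM were compared with limma 3.58.1 in R 4.3.3 (two-sided, with trended eBayes and with Benjamini-Hochberg adjustment over 15070 genes). This scale understates the change of low genes. Correlations used all 720 orders of the 6 tumors in scipy 1.17.1. With group means removed, tumors were also permuted only within their group, which was added after seeing the data. Procedures were tested on simulated data.

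The genes and lists were chosen with earlier results of these data known. Genes named were the 10 genes, Col2a1, the 4 highest by mean FPKM and the 4 with the largest fold changes of each further list, leading markers and those at 0, and the 3 genes most like Comp, Cnmd, Sox9 and Sox10. Alternatives were 0.1 added, no filter, at least 2 FPKM, FPKM as deposited, quantile normalization, no trend, voom on recovered reads, a block for the replicate number, and each tumor left out. Leaving out IgG replicate 2 and anti-PD-1 replicate 1 together was added after seeing the data.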

Additional observations from a re-analysis of the deposited data

How the results depend on the processing

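The log2 fold changes of Comp, Cnmd, Sox8, Matn2, Sox5 and Sox9 kept their sign under every alternative. Those of Sox6, Sox10, Col9a1, Sox12, Sox13 and Thbs4 reversed under some, and so did genes whose fold change is not reported here, such as Col10a1 (-0.14 to 0.28), S100b (-0.33 to 0.26) and Bpifa2 (-5.81 to 0.51) when each tumor was left out. When each tumor was left out, Sox6 ran from -0.059 to 0.29, Sox10 from -0.098 to 0.22, Sox12 from -0.86 to 0.027, Sox13 from -0.62 to 0.14 and Thbs4 from -0.016 to 0.75. Quantile normalization gave -0.091 for Sox10. Leaving out IgG replicate 2 with anti-PD-1 replicate 1 gave -0.076 for Sox10 and -0.048 for Col9a1. The cause of these shifts was not tested. When each tumor was left out, between 1 and 4 of the 8 genes had an unadjusted p under 0.05, 1 in the absence of either IgG replicate 2 or anti-PD-1 replicate 3, and between 3 and 5 had groups that did not overlap. Over all genes these counts were 962 to 2680 at an unadjusted p and 3449 to 5343 without overlap, with 0 to 12 at an adjusted p. In the absence of IgG replicate 2 together with anti-PD-1 replicate 1 they were 1 of the 8 genes, 915 genes and 5735 genes. Fewer tumors leave more genes without overlap by construction.

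Replicates that share a number did not deviate together across the groups (r of -0.16, 0.01 and 0.19), so the numbers were not taken as pairs. With the replicate number as a block, 3 of the 8 genes and 1726 of all genes had an unadjusted p under 0.05, and 0 an adjusted p. Of the 4 genes past this p without the block, Matn2 was lost. With group means removed, r of Cnmd and Sox10 was -0.91 and past the threshold over all orders before adjustment, but not after adjustment over the 4 relations (0.0667). The form within groups cannot decide, since 0.0556, the exact permutation p it gave, is the smallest it can give. Acan and Matn4 rest on too few reads for a comparison.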
